A study of Oryza sativa Japonica Group with 5 samples.

Results

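The enzymes described here are 8 of the proteins that carry the Calvin cycle of the rice chloroplast on from the product of Rubisco, each followed through 1 gene: PRK, GAPA, GAPB, SBPase, plastid FBPase, plastid aldolase, plastid TPI and transketolase. They were taken by identifier, with earlier results of these data known, and are 8 of the 36475 loci listed in every library. RNA-seq libraries were made from leaves of the rice mutant pls4 (genotype pls4, treatment given as knockdown, 2 libraries) and of wild type rice (genotype WT, treatment given as non-knockdown, 3 libraries), both Oryza sativa Japonica Group; the labels also give mesophyll cell as the cell type. The series presents pls4 as a mutant altered in its susceptibility to the fungal disease sheath blight, and it names intron retention and defence genes in its title. The labels used here do not name the altered gene, so its level could not be used to check the genotypes, and they do not give leaf age, growth conditions, any inoculation, or the plants behind each replicate. All p-values therefore rest on the spread among these libraries alone, and that spread can be technical.

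In the Calvin cycle, Rubisco joins carbon dioxide to ribulose bisphosphate, and the enzymes downstream reduce the product to triose phosphate and rebuild the acceptor. The chloroplast GAPDH, built of GAPA and GAPB subunits, performs the reduction. TPI and aldolase combine the trioses, FBPase and SBPase remove phosphates in steps that run only forward, transketolase moves carbon fragments between sugars, and PRK makes ribulose bisphosphate again. In plants the GAPDH with B subunits, FBPase, SBPase and PRK are switched on in the light through thioredoxins, and most triose phosphate that leaves the cycle goes to sucrose in the cytosol or to starch in the chloroplast. Cytosolic GAPDH, aldolase and TPI are separate gene products, whose work includes glycolysis.

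Values are in FPKM, the number of sequenced fragments relative to the length of the gene and to the size of the library, so levels can be compared between genes as well as between libraries. All are relative values: a gene's FPKM depends on what the rest of the library holds. The listed FPKM summed to between 736527 and 748458 in the pls4 libraries and between 750735 and 758853 in the WT libraries. Read counts are not given and total depth is unknown. The commonest ratio among low values placed WT replicate 2 at 1.31 times the depth of WT replicate 1, and the other libraries at 0.99 to 1.02 times, if a low FPKM is a whole number of reads. As a check of the tissue label, the Rubisco small subunit gene RBCS2 stood at 4906 and 6894 FPKM in pls4 and at 9723 to 16673 in WT. The seed storage gene GLUA2 was between 3.60 and 4.88 FPKM in the 5 libraries, and the root silicon transporter gene LSI1 between 11.4 and 20.1.

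All 8 genes fell in pls4 and none rose, at the unadjusted p under 0.05 as well as at the adjusted one (limma on log2(FPKM + 1), Benjamini-Hochberg adjusted p under 0.05 over 19637 tested loci; 0 rose by either). Both pls4 libraries lay below all 3 WT libraries for each gene. The log2 fold change, pls4 minus WT, ranged from -2.35 for GAPA to -0.69 for SBPase, with a median of -1.17 against 0.15 for all tested loci. Of all tested loci 52% were called, 18.5% as lower and 33.4% as higher, and 24.5% had both pls4 values below the WT values (45.4% above). A fold change of -1 or less with a call, which is a fall of at least 2-fold, was found for 5 of the 8 genes and for 7.21% of the tested loci. Among the 1039 tested loci whose mean FPKM was 100 or more, a limit that all 8 genes exceed and that was set after the values were seen, 32.4% were called lower and 36.5% higher. Summed, the 8 genes took 0.577% and 0.422% of all FPKM in pls4, against 0.995%, 1.24% and 1.17% in WT. In bulk tissue, fewer cells of a type and less RNA of these genes per cell cannot be told apart.

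**Figure D1:**
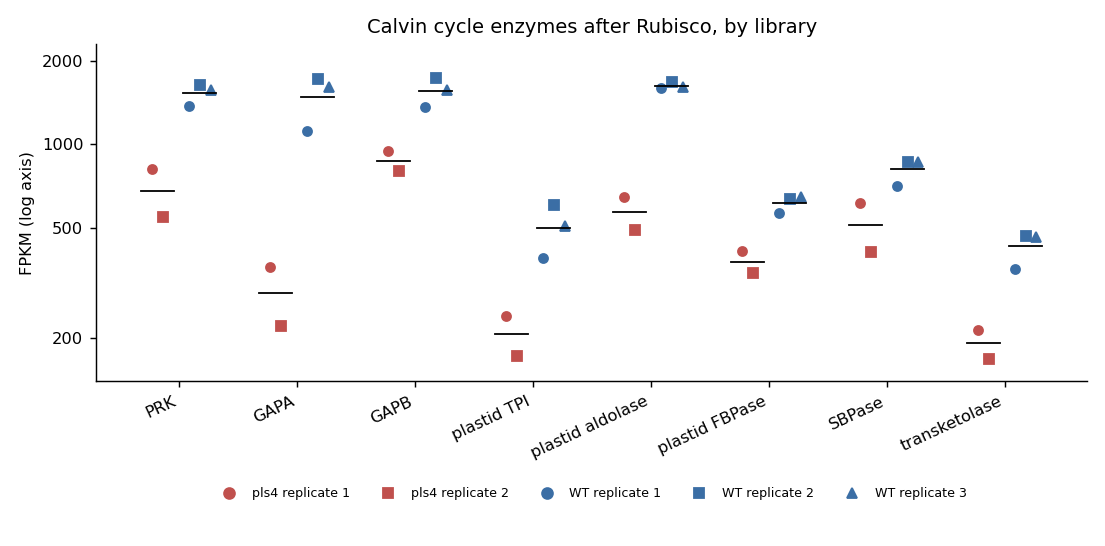
FPKM of the 8 Calvin cycle genes (log axis) in each library, with pls4 in red, WT in blue, the marker shape giving the replicate number and the black line the group mean. Both pls4 values lie below all WT values for every gene, and the gap is widest for GAPA (292 against 1480 FPKM on average).

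**Figure D2:**
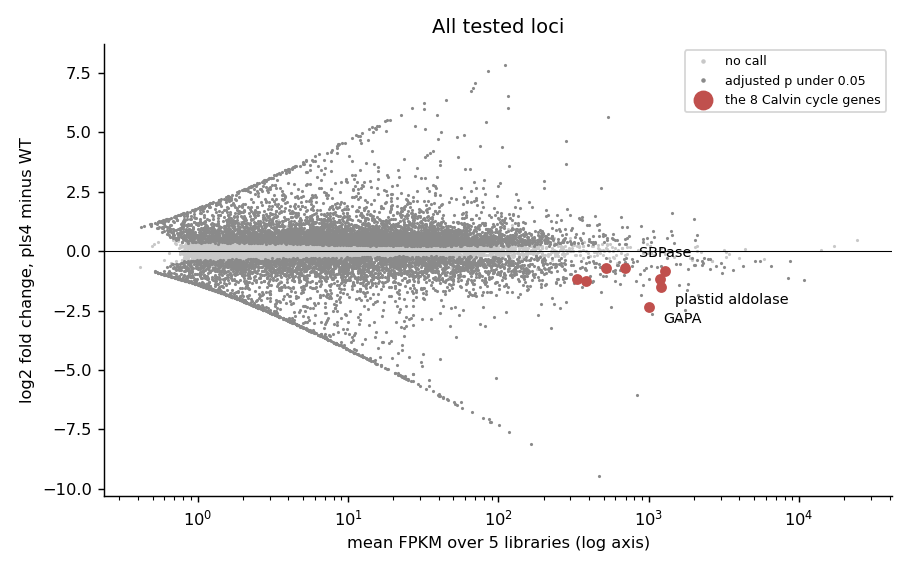
Each dot is 1 of the 19637 tested loci, placed by its mean FPKM over 5 libraries (log axis) and its log2 fold change, pls4 minus WT; dark dots have an adjusted p under 0.05 and red points are the 8 Calvin cycle genes. The 8 genes sit among the most abundant loci and below 0, with GAPA lowest at -2.35.

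The reduction step held the largest fall of the group. GAPA (Os04g0459500, chromosome 4), the A subunit of chloroplast GAPDH, had 363 and 222 FPKM in the pls4 libraries, against 1122, 1714 and 1603 FPKM in the WT libraries. Both pls4 values were far below the lowest WT value, and the pls4 mean was 19.8% of the WT mean. The log2 fold change was -2.35 ± 0.25 (SE; limma, adjusted p = 0.000268), and 2.08% of tested loci had a lower one. GAPB (Os03g0129300, chromosome 3), the subunit with the regulatory tail, had 945 and 802 FPKM in pls4, against 1361, 1741 and 1574 FPKM in WT. It fell to 56.0% of the WT mean (log2 fold change -0.83 ± 0.14, limma, adjusted p = 0.00219).

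The transcripts of the 2 GAPDH subunits thus stood in different proportions in the genotypes. Within each library, which makes the value independent of scaling between libraries, GAPB exceeded GAPA 2.60-fold and 3.61-fold in pls4, against 1.21-fold, 1.02-fold and 0.98-fold in WT. The 3 WT libraries held nearly equal amounts of both transcripts, and neither pls4 library did. The log2 ratio of GAPB to GAPA was higher in pls4 by 1.52 (1.62 ± 0.33 in pls4 and 0.09 ± 0.16 in WT, SD, n = 2 and 3). An exact permutation test over the libraries (two-sided, 10 splits) gave p = 0.1, the smallest it can give in this design, and 0.133 when adjusted over the 4 ratios tested.

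The trioses are interconverted and joined by TPI and aldolase. Plastid aldolase (Os11g0171300, chromosome 11) had 649 and 491 FPKM in pls4, against 1590, 1675 and 1608 FPKM in WT. It averaged 570 ± 112 FPKM in pls4 (SD, n = 2) and 1625 ± 45 FPKM in WT (SD, n = 3), the highest WT mean of the 8 genes, although GAPA and GAPB exceeded it in WT replicate 2. It fell by 1.52 ± 0.13 on the log2 scale (limma, adjusted p = 0.000102). Plastid TPI (Os09g0535000, chromosome 9), which turns one triose phosphate into the other, had 241 and 173 FPKM in pls4, against 389, 603 and 509 FPKM in WT. Its WT values varied more than those of aldolase, and the groups did not overlap (log2 fold change -1.26 ± 0.21, limma, adjusted p = 0.00215).

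The phosphatases showed the smallest falls. Plastid FBPase (Os03g0267300, chromosome 3), which commits carbon to hexose phosphate in the chloroplast, had 411 and 344 FPKM in pls4, against 566, 635 and 648 FPKM in WT (log2 fold change -0.71 ± 0.11, limma, adjusted p = 0.00185). SBPase (Os04g0234600, chromosome 4), which does the same for the sugar that leads back to the acceptor, had 614 and 409 FPKM in pls4, against 710, 867 and 862 FPKM in WT. Its pls4 replicate 1 came close to WT replicate 1. The log2 fold change of SBPase was -0.69 ± 0.18 (limma, adjusted p = 0.0163). This call was lost without WT replicate 2 (limma, adjusted p = 0.0561), without WT replicate 3 (limma, adjusted p = 0.0662) and without pls4 replicate 2, where the fold change was -0.40 (limma, adjusted p = 0.0678). SBPase exceeded plastid FBPase 1.49-fold and 1.19-fold in the pls4 libraries, against 1.25-fold, 1.37-fold and 1.33-fold in the WT libraries. These ratios overlap, with a difference in log2 ratio of 0.02 between the genotypes (exact permutation test, two-sided, p = 1.0).

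The last steps lead back to the acceptor. Transketolase (Os06g0133800, chromosome 6) had 215 and 168 FPKM in pls4, against 357, 468 and 462 FPKM in WT (log2 fold change -1.16 ± 0.16, limma, adjusted p = 0.000867). PRK (Os02g0698000, chromosome 2), the kinase found only in this cycle, had 815 and 546 FPKM in pls4, against 1377, 1633 and 1573 FPKM in WT. Its pls4 mean was 44.5% of its WT mean, close to the 44.7% of transketolase (PRK log2 fold change -1.19 ± 0.18, limma, adjusted p = 0.00138). PRK exceeded GAPA 2.25-fold and 2.46-fold in pls4, against 1.23-fold, 0.95-fold and 0.98-fold in WT, while transketolase reached 0.331 and 0.343 of plastid aldolase in pls4, against 0.224, 0.279 and 0.287 in WT. Both ratios were without overlap between the genotypes, and the exact permutation test gave its smallest p of 0.1 for each (0.133 adjusted over the 4 ratios, two-sided).

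The order of the levels differed between the genotypes. In pls4 it ran GAPB (873 FPKM), PRK (681), plastid aldolase (570), SBPase (511), plastid FBPase (378), GAPA (292), plastid TPI (207) and transketolase (192). Both pls4 libraries gave this same order, although the ranges over the 2 libraries overlapped for every neighbouring pair. In WT it ran plastid aldolase (1625 FPKM), GAPB (1559), PRK (1528), GAPA (1480), SBPase (813), plastid FBPase (617), plastid TPI (500) and transketolase (429). The ranges of neighbours among the first 4 overlapped in WT, while GAPA lay wholly above SBPase and SBPase wholly above plastid FBPase. Plastid TPI overlapped with plastid FBPase and with transketolase, but plastid FBPase lay wholly above transketolase. Each WT library placed SBPase, plastid FBPase, plastid TPI and transketolase in this order below the first 4. GAPA was therefore sixth in pls4 and among the leading 4 in WT.

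The 8 genes also shared their lowest library within each genotype. For every one of them pls4 replicate 2 was below pls4 replicate 1, and WT replicate 1 was the lowest of the 3 WT libraries. These orders were read from the values of the 8 genes themselves, so their own count is not read as support. Both orders held at 14.6% of all tested loci, at 26.9% of those averaging 100 FPKM or more and at 23.3% of those called lower. They also held for all 6 listed genes of Rubisco's small subunit, Rubisco activase and the epimerase, described below. Of the other listed genes they held for 2 of 4 in redox regulation and export and 2 of 7 cytosolic counterparts. The median profile of the 8 genes, as log2(FPKM + 1) minus the WT mean, was -0.94 and -1.41 in pls4 replicates 1 and 2 and -0.19, 0.12 and 0.06 in WT replicates 1, 2 and 3. GAPA lay farthest from this profile (root mean square difference over the 5 libraries 0.76 on the log2 scale), while PRK and transketolase lay nearest (0.04 and 0.05), being the middle members by fold change that set the median. Without WT replicate 1 and pls4 replicate 2 together, a setting chosen after the values were seen, the median log2 fold change of the 8 genes was -1.04. That leaves 1 pls4 library, so WT alone gives the spread, and its calls are not read as support.

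Outside the 8 genes and the lists, the 3 tested loci nearest to the median profile were Os03g0757200, Os01g0286600 and Os01g0208700, with root mean square differences of 0.03, 0.05 and 0.05 on the log2 scale over the 5 libraries. The files do not pair these identifiers with gene names. Os03g0757200, the nearest, had 14.4 and 10.4 FPKM in pls4, against 26.7, 31.3 and 30.7 FPKM in WT.

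The partners of these enzymes in the cycle whose names passed a check of position were lower too. All 6 listed genes of Rubisco's small subunit, Rubisco activase and the epimerase were called lower, with a median log2 fold change of -1.33. Lower calls were found for 18.5% of all tested loci and 32.4% of those averaging 100 FPKM or more. A further 5 recalled partners had no entry under their names and were left out. Among these, the locus recalled as a second plastid aldolase (Os01g0118000, name not checked) was called higher. Its log2 fold change was 0.40 (limma, adjusted p = 0.0337), at a mean of 15.5 FPKM over all libraries. The others left out are not described here. RCA (Os11g0707000), the activase that frees Rubisco from bound sugar phosphates, had 196 and 129 FPKM in pls4, against 746, 890 and 832 FPKM in WT. Its fold change of -2.36 ± 0.18 (log2, SE) was close to that of GAPA. RPE (Os03g0169100), the epimerase that feeds PRK, had 512 and 445 FPKM in pls4, against 696, 735 and 713 FPKM in WT (log2 fold change -0.58 ± 0.10). The 4 small subunit genes had fold changes between -1.65 (RBCS5, Os12g0291400) and -0.65 (RBCS3, Os12g0291100). These copies are alike in sequence, and how reads that match several of them were shared is not given. RBCS2 (Os12g0274700) stood at -0.43 and lost its call after quantile normalization (limma, adjusted p = 0.369), where RBCS3 stood at 0.02. The call of RBCS3 was also lost with a pseudocount of 0.1, with no filter, and without WT replicate 2 or 3 or pls4 replicate 2, and that of RBCS2 with no filter, where 4 of the 6 were called lower.

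Of 4 genes of light regulation and export, 3 were called lower and 1 had no call, with a median log2 fold change of -0.42. The share called lower was 18.5% of all tested loci and 32.4% of those averaging 100 FPKM or more. NTRC (Os07g0657900), a chloroplast thioredoxin reductase, had 80.7 and 66.5 FPKM in pls4, against 97.5, 127 and 115 FPKM in WT (log2 fold change -0.61 ± 0.13, limma, adjusted p = 0.00776). TPT (Os01g0239200), the transporter that exchanges triose phosphate for phosphate across the chloroplast envelope, had 559.1 and 558.8 FPKM in pls4, against 701, 913 and 863 FPKM in WT (log2 fold change -0.55 ± 0.13, limma, adjusted p = 0.00943). The thioredoxin genes stood at the threshold. Thioredoxin m (Os12g0188700) had a log2 fold change of -0.28 ± 0.10 (limma, adjusted p = 0.0490), which stood at 0.02 after quantile normalization and lost its call without any 1 of the 5 libraries. Thioredoxin f (Os01g0913000), which activates FBPase in plants, had a log2 fold change of -0.29 ± 0.10 and missed the threshold narrowly (limma, adjusted p = 0.05002); it was called lower with median ratio scaling, at -0.47.

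The cytosolic counterparts that passed the check of names went the other way for GAPDH and aldolase. Another recalled gene of cytosolic aldolase had no entry under its name and was left out. Of 7 listed genes 5 were called higher, 1 lower and 1 had no call, with a median log2 fold change of 0.48. Higher calls were common, at 33.4% of all tested loci and 36.5% of those averaging 100 FPKM or more. The cytosolic GAPDH gene GAPC1 (Os08g0126300) had 713 and 768 FPKM in pls4, against 518, 528 and 543 FPKM in WT (log2 fold change 0.48 ± 0.09). GAPC2 (Os04g0486600) had 328 and 387 FPKM in pls4, against 198, 177 and 182 FPKM in WT (0.94 ± 0.10), and GAPC3 (Os02g0601300) had 130 and 145 FPKM in pls4, against 65.5, 63.5 and 57.6 FPKM in WT (1.13 ± 0.09). All 3 cytosolic GAPDH genes were higher in both pls4 libraries than in any WT library, as were 45.4% of all tested loci. GAPA and GAPB showed the reverse.

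Among cytosolic aldolases, FBA1 (Os05g0402700) had 42.2 and 41.4 FPKM in pls4, against 26.7, 27.6 and 25.2 FPKM in WT (log2 fold change 0.64 ± 0.08). AldC-1 (Os01g0905800) had a fold change of 0.41 ± 0.10, a call that was lost with median ratio scaling (0.23), after quantile normalization (0.27), without WT replicate 3 and without pls4 replicate 1. Cytosolic TPI (Os01g0147900) had 428 and 409 FPKM in pls4, against 457, 487 and 467 FPKM in WT, with a log2 fold change of -0.17 ± 0.08 and no call (limma, adjusted p = 0.122; called lower with median ratio scaling, at -0.35). CFBP1 (Os01g0866400), the cytosolic FBPase that works toward sucrose, fell with the plastid enzymes. It had 79.3 and 47.1 FPKM in pls4, against 107, 125 and 131 FPKM in WT (log2 fold change -0.97 ± 0.21; -0.60 without pls4 replicate 2).

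**Figure D3:**
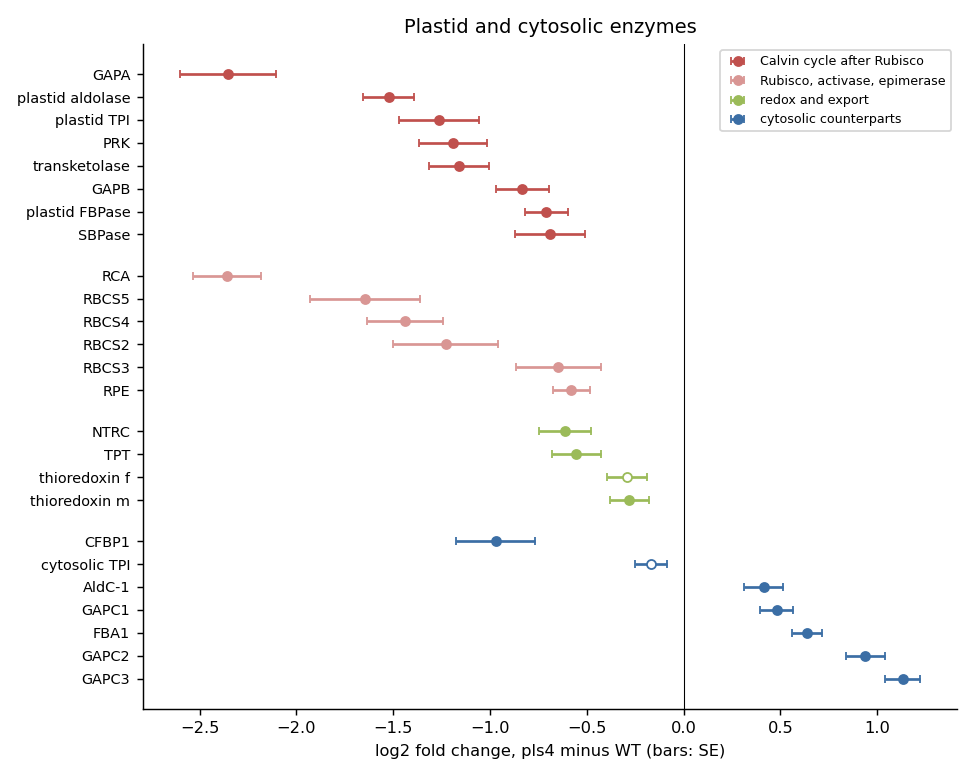
Log2 fold change, pls4 minus WT, with SE bars, for the 8 Calvin cycle genes, their cycle partners, genes of redox regulation and export, and cytosolic counterparts; open points had no call. All 8 Calvin cycle genes lie left of 0, and 5 of the 7 cytosolic genes lie right of it.

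Plastid and cytosolic transcripts of the same reaction were also set against each other within each library. These pairs were chosen after the values were seen and are given without a test. GAPA stood at 0.51 and 0.29 times GAPC1 in pls4, against 2.17, 3.24 and 2.95 times in WT. GAPC1 was thus above GAPA in both pls4 libraries and below it in all 3 WT libraries. The other plastid subunit, GAPB, stayed above GAPC1 in every library. In pls4 it had 945 and 802 FPKM, against 713 and 768 FPKM for GAPC1. Plastid TPI stood at 0.56 and 0.42 times cytosolic TPI in pls4, against 0.85, 1.24 and 1.09 times in WT. Plastid aldolase remained above AldC-1 in every library, at 7.29 and 5.87 times in pls4 and at 22.2, 28.5 and 25.3 times in WT. Plastid FBPase stood at 5.19 and 7.30 times CFBP1 in pls4, against 5.27, 5.08 and 4.95 times in WT, and these ranges overlapped.

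**Figure D4:**
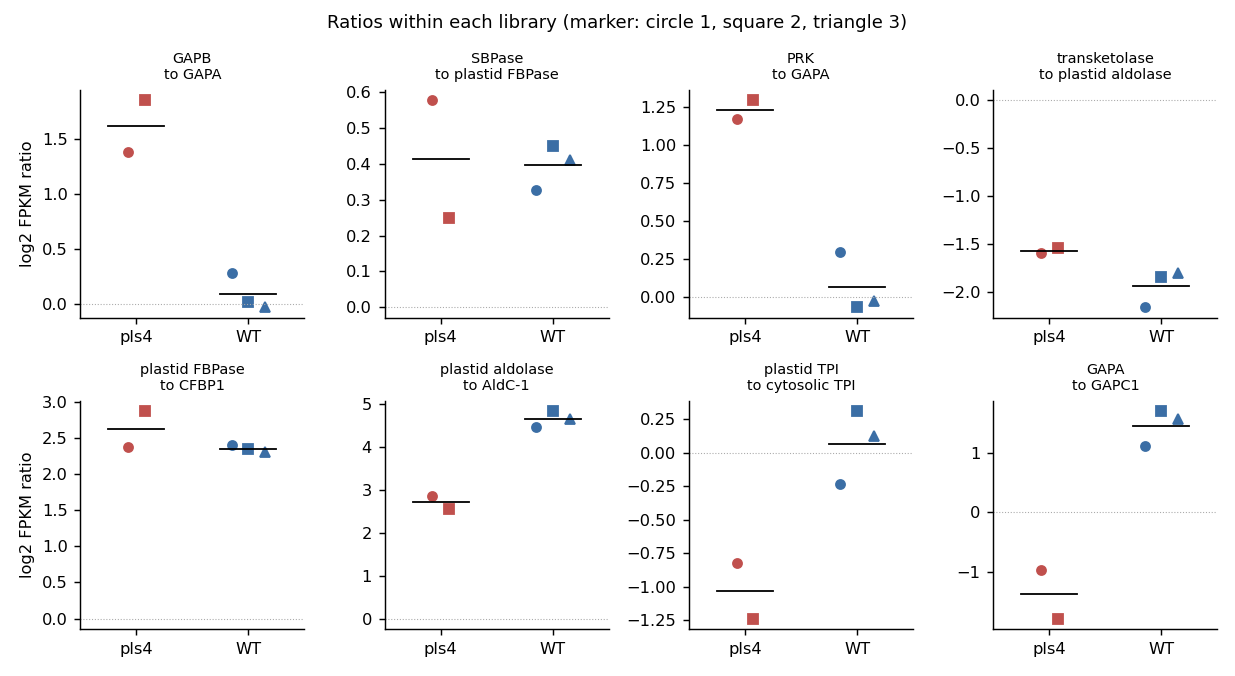
Log2 ratio of 2 transcripts within each library, with pls4 (red) left of WT (blue) and the group mean as a line; each panel has its own vertical scale and a dotted line marks equal FPKM where it falls in the panel. GAPB to GAPA, PRK to GAPA and transketolase to plastid aldolase are higher in pls4. GAPA to GAPC1, plastid aldolase to AldC-1 and plastid TPI to cytosolic TPI are lower, and the 2 ratios that involve plastid FBPase overlap.

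Some markers of other tissues differed between the genotypes, but the seed gene GLUA2 did not (log2 fold change 0.01, limma, adjusted p = 0.954). All 4 listed genes of secondary walls and vascular tissue (CESA4, CESA7, CESA9 and BC1) were called higher, against 33.4% of all tested loci. None was at 0 in any library. Their summed level was 23.7 and 11.3 FPKM in pls4 replicates 1 and 2, against 2.40 to 4.19 FPKM in WT. CESA7 (0.34 to 0.77 FPKM in WT) and CESA9 (0.33 to 0.71) passed the filter only through pls4, so their calls are not read as support. The pls4 library with the higher sum, replicate 1, was also the one with more of all 8 Calvin cycle transcripts. This is an order of 2 libraries and was not tested. The root gene LSI1 was also called higher, with 16.6 and 20.1 FPKM in pls4, against 14.6, 11.4 and 14.4 FPKM in WT (log2 fold change 0.42 ± 0.14, limma, adjusted p = 0.0370). The part of tissue composition in the lower Calvin cycle levels was not tested. Of the markers of dividing cells, MCM2 was called lower and PCNA had no call. Their summed level was 12.3 and 13.1 FPKM in pls4, against 15.4 to 16.7 FPKM in WT. MCM2, at 0.19 and 0.08 FPKM in pls4, passed the filter only through WT, so its call is not read as support.

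The direction of the 8 genes did not depend on how libraries were scaled. The median log2 fold change of all tested loci was 0.15 as deposited and 0.00 after each library was scaled by its median ratio, and all 8 genes were called lower in both cases, with medians of -1.17 and -1.36. After quantile normalization all 8 were called lower, with a median of -1.08. With median ratio scaling 4 of the 7 cytosolic genes were called higher and 2 lower.

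**Figure D5:**
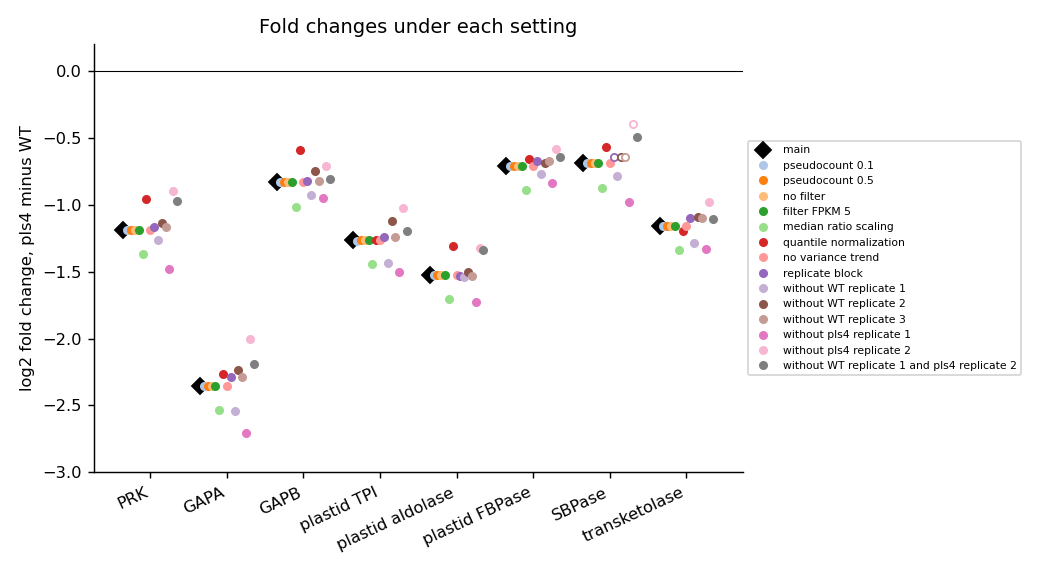
Log2 fold change, pls4 minus WT, of each Calvin cycle gene as reported (black diamond) and under each of 14 other settings (circles, coloured as in the key; open circles had an adjusted p of 0.05 or more). Every value lies below 0, and SBPase is the gene with open circles.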

How the data were processed

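Leaf RNA was extracted with Trizol and made into TruSeq libraries, per the labels' protocols. The authors deposited 1 table of FPKM per library, per the file headers. TopHat2 2.1.1 and the build IRGSP-1.0 are named in the submitters' processing notes; the sources used here do not give the counting tool, annotation or gene lengths. Depth is unknown, so no counting interval is given.

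The 19637 loci that reached an FPKM of 1 in 2 or more libraries entered a limma fit (limma 3.58.1, R 4.3.3) of log2(FPKM + 1) on genotype alone, with eBayes using a mean-variance trend; calls needed a Benjamini-Hochberg adjusted p under 0.05 over all tested loci. All 8 genes passed this filter. A log2 fold change is on the log2(FPKM + 1) scale, which understates low genes. The fit was also run on simulated data with independent noise, its own variances and far fewer changed loci than were called here. That run is a check of the code and cannot check these calls. In any 2 libraries, at most 0.276% of the loci with FPKM of at least 5 in both had exactly the same listed value (no tolerance; values are listed to 2 decimals).

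The files hold no gene names and the RefSeq table (ASM3414082v1) matched 1 identifier. Names of the 8 genes were given with their identifiers; for plastid FBPase and plastid aldolase the table has that name on the same chromosome at the same place in gene order (tolerance 0.05 of the chromosome), and 6 have no entry there under that name. Of 29 recalled pathway pairs 17 passed this check and were used, and 12 were left out. For the 4 RBCS genes the table was checked for the family only. Named were all 8 genes, all list genes that passed, the 3 nearest loci and Os01g0118000, which was left out of the lists. The 8 genes and the lists were chosen with earlier results of these data known. Alternatives were other pseudocounts, filters, scalings and variance settings, the replicate number as a term, and leaving out libraries. The labels pair no libraries, so the main fit has no pairing.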

Additional observations from a re-analysis of the deposited data

How the results depend on the processing

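All 8 Calvin cycle genes kept a negative fold change under 14 alternatives, of which 1 was chosen after seeing the data, and 7 of them kept their call under each. Leaving out 1 library at a time gave 7 to 8 genes called lower; without either pls4 library that group is 1 sample, assumed to vary like WT, so these fits are no check of the spread in pls4. The replicate numbers pair no samples by label, and deviations of same-numbered libraries correlated at -0.095 and -0.138. The deviations of 2 pls4 libraries from their mean mirror each other, so these values cannot show or exclude pairing. With the replicate number as a block, WT replicate 3 has no partner, so the fold changes equal those without that library. The median of the 8 genes was -1.13 in both. In the block fit 7 of 8 were called lower, as SBPase lost its call (limma, adjusted p = 0.0702). Calls were also lost for TPT, GAPC1, AldC-1, RBCS2, RBCS3 and thioredoxin m. The cytosolic genes called higher were then 3 and the redox and export genes called lower 1; of all loci 4408 were higher and 2886 lower. With median ratio scaling 4243 loci were called higher and 4845 lower, against 6566 and 3642, the higher share being 46.7% (53.0% after quantile normalization) against 64.3%, and 2 cytosolic genes were lower. Requiring an FPKM of 5 left 913 loci at least 2-fold lower against 1415. Without WT replicate 1 and pls4 replicate 2 together 924 were at least 2-fold higher against 1397. Leaving out 1 library gave 3997 to 6794 loci higher and 915 to 1427 at least 2-fold higher, both lowest without pls4 replicate 2. The difference in the log2 ratio of SBPase to plastid FBPase ranged from -0.15 to 0.18 when 1 library was left out, so it has no direction. After quantile normalization RBCS3 stood at 0.0177 and thioredoxin m at 0.0189 on the log2 scale. The cause of these changes was not tested. Without read counts, the counting error of low loci is unknown; the 8 genes stood at 168 FPKM or more in every library.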
